A study of Mus musculus with 3 samples.

Results

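Developmental transcription factors were read across 3 lung samples of a mouse study on macrophages in IKKα mutant lung. Members were the genes whose symbol carries 1 of 20 family stems (Hox, Fox, Sox, Tbx, Gata, Klf, Irx, Meis, Pitx, Hey, Hes, Id, Tcf, Lef1, Ets, Elf, Runx, Grhl, Nr and Tead), leaving out Sox2, and they were chosen by their ratios between samples, since a gene entered only if the authors' deposited tables list it past 2-fold between any 2 of the 3 samples. This gave 44 genes of 17 stems, with 59 probe sets, out of 2944 genes named in those tables. Because the tables list only probe sets that differed, every contrast was used to choose the members, and the values that follow are a description with no test.

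The 3 groups had 1 Affymetrix array each, from mice aged 16 weeks. The depleted lung came from a mouse of genotype KA/KA-Lori-Ikkα after macrophage depletion, and its tissue is labelled as somewhat inflamed, without an observed tumour. The tumour lung came from a mouse of the same genotype that is not labelled as treated, and mixed lung squamous cell carcinoma with neighbouring tissue. The wild type lung is labelled as normal tissue. The depleting agent and the parts of the genotype name are not explained in the sources used here. IKKα is known as a subunit of the kinase complex that activates NF-kB. No value has an error, because no group has a replicate, and precision is limited by having 3 arrays in all.

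Transcription factors of these families set cell identity by binding DNA through a domain shared within each family, such as the homeobox, forkhead, HMG box, T-box, zinc finger, runt or nuclear receptor domain. In the lung they separate endothelium (SOX and KLF factors), mesenchyme (FOXF, TBX and TCF21), airway epithelium (FOXA) and lymphocytes (TCF7 and LEF1). In whole tissue, fewer cells of a type and less RNA per cell cannot be told apart.

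Markers were set against the labels. Squamous markers had their highest sum in tumour lung, and 4 of them (Perp, Trim29, Col17a1 and Itgb4) also passed the level filter between depleted and wild type lung. In depleted lung 13 of the 14 monocyte and macrophage markers that passed were at least 2-fold above wild type (median log2 2.04), and 12 of 15 were at least 2-fold below tumour lung (median -1.56). Array medians were 127, 124 and 128 in depleted, tumour and wild type lung. Xist, transcribed from the inactive X chromosome, read 133 in depleted, 15608 in tumour and 188 in wild type lung, and the 4 measured Y-linked genes were low only in tumour lung, so the tumour sample differed in sex-linked genes from both others. The 18 probe sets of the hybridization controls, added at known amounts before hybridization, were higher by a median log2 of 1.00 in tumour than in wild type lung, 0.15 in depleted than in tumour lung and 1.18 in depleted than in wild type lung. Scaling to them lowers every difference accordingly, which puts the median over all probe sets at -1.04, -0.13 and -1.21. The part of sex or of scaling in the results was not tested, and control scaling turned the sign of 3 members from positive to negative in tumour against wild type lung (Elf5, Runx2 and Tcf7), of 0 in depleted against tumour lung and of 17 in depleted against wild type lung. For all 17 (Ets1, Ets2, Foxp1, Gata2, Hey1, Hoxa5, Id2, Id3, Klf2, Nr4a1, Runx2, Runx3, Sox7, Sox9, Sox13, Sox17 and Sox18), a place above wild type in depleted lung rests on the deposited scale. Surfactant genes of alveolar type II cells such as Sftpc were not among the named genes, and of 12 listed markers of these cells only Etv5 was.

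Summed marker intensities of other cells also differed. Club and secretory cells had 77253 in depleted, 30738 in tumour and 66782 in wild type lung, and alveolar type I cells 58593, 27899 and 66163. Neutrophil markers summed to 92955, 60151 and 8560.2, B and plasma cell markers to 30561, 46075 and 4521, and cell cycle genes to 4456, 5172 and 1586. Lung epithelial markers were thus lowest in tumour lung and leukocyte and cycle markers lowest in wild type lung, and their part in the members' values was not tested.

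A gene counted as different when it was at least 2-fold apart and the brighter array was at or above its own median. If the dimmer value lay under the 25th percentile of its array, the fold was taken against that percentile and is written as "at least". In tumour lung against wild type lung, 43 of the 44 members passed the level filter, and 25 were lower, 6 higher and 12 under 2-fold apart. The median log2 difference was -1.16, against -0.11 over the 2813 named genes that passed. Of those named genes 38.2% were lower and 37.6% higher, and of all probe sets that are not controls 10.4% were lower and 9.25% higher. The tumour array was the lowest of the 3 for 33 of the 44 members. This count was not made over the other named genes, so it has no share to be set against.

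In depleted lung against tumour lung all 44 members passed, with 24 higher, 5 lower and 15 under 2-fold apart and a median log2 difference of 1.08, against 0.26 over named genes. The shares over named genes were 29.5% higher and 27.5% lower, and those over all probe sets 7.68% and 7.26%. In depleted lung against wild type lung 41 members passed, with 5 higher, 4 lower and 32 under 2-fold apart and a median of -0.08 (named genes -0.07). Here 24.6% of named genes were higher and 21.1% lower, and 6.24% and 6.34% of all probe sets. Each pair of comparisons shares an array, so the opposite signs of the first 2 comparisons are not separate evidence.

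**Figure D1:**
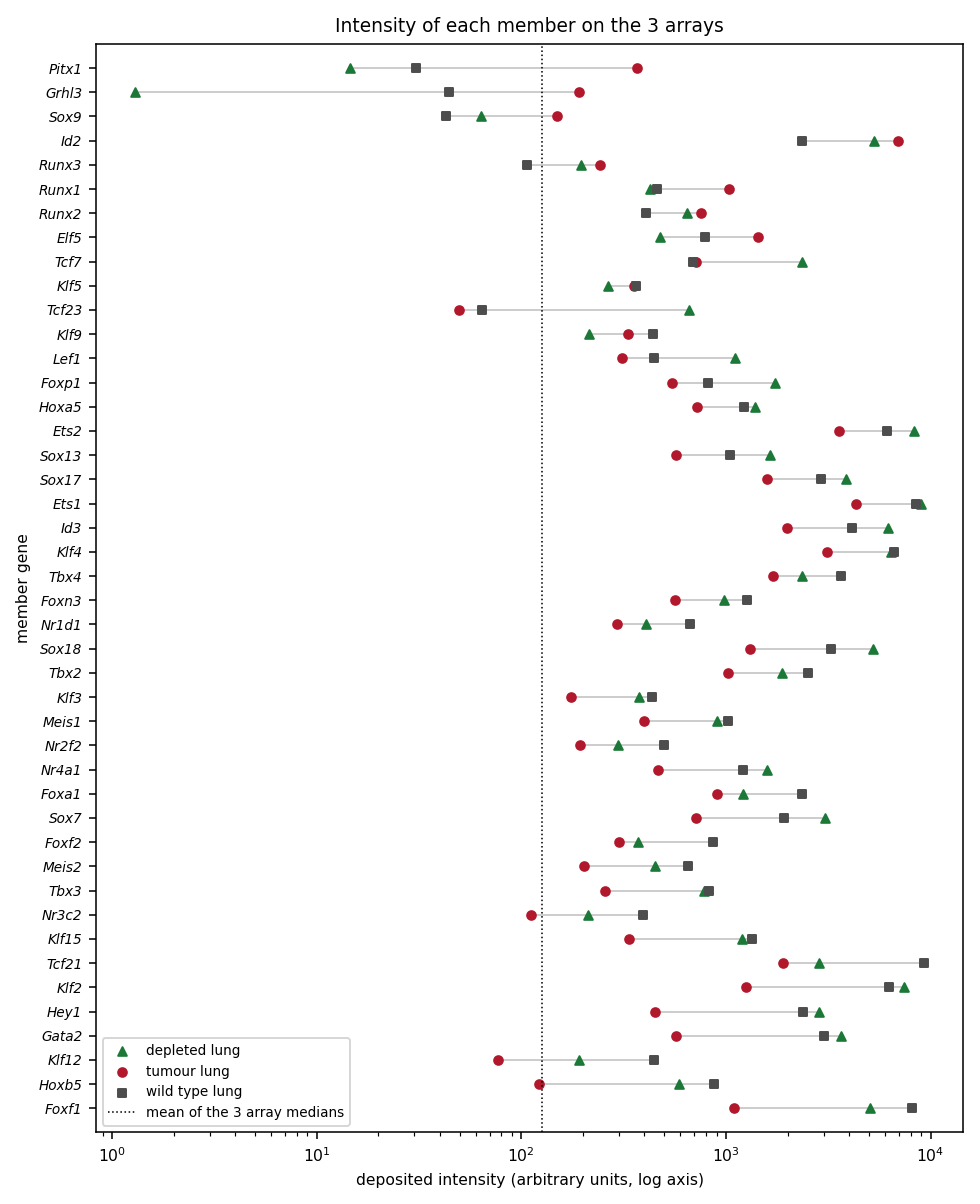
Deposited intensity of each of the 44 members (rows, ordered by the log2 difference of tumour and wild type lung) on a log axis, with a triangle for depleted lung, a circle for tumour lung and a square for wild type lung (1 array each), and the mean of the 3 array medians as a dotted line. The circle is leftmost for 33 members (not counted for other genes), and Pitx1, Grhl3 and Sox9 lie left of the line on the other 2 arrays.

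Of the 9 endothelial and vascular factors among the members, 7 were at least 2-fold lower in tumour than in wild type lung, 2 were under 2-fold apart, and the median log2 difference was -1.42. All 9 were at least 2-fold higher in depleted than in tumour lung by the deposited intensities (median 2.09), but Ets1 and Klf4 fell short of 2-fold in the authors' deposited table (1.91 and 1.99) and after control scaling (log2 0.91 and 0.88). The second probe set of Foxf1 was 0.83 log2 units higher, also short of 2-fold. By the probe sets used, all 9 were under 2-fold apart between depleted and wild type lung (median 0.26). The second probe set of Foxf1 was 1.76 log2 units below wild type in depleted lung.

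Klf2, a zinc finger factor induced by blood flow in endothelium, read 7404 in depleted, 1254 in tumour and 6245 in wild type lung. Gata2, needed in blood stem cells and endothelium, read 3647, 568 and 2999 in the same order, and Hey1, a Notch target of arteries, 2847, 451 and 2373. In each of these genes tumour lung was the low array and the other 2 lay close together. The folds below wild type in tumour lung were 4.98 for Klf2, 5.28 for Gata2 and 5.26 for Hey1, and the folds above tumour lung in depleted lung were 5.90, 6.42 and 6.31. For Hey1 these folds are 3.78 and 4.35 in the authors' deposited table.

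The 3 SOX factors of vascular development followed the same order, with smaller differences between tumour and wild type lung. Sox7 read 3033 in depleted, 714 in tumour and 1915 in wild type lung, Sox18 5230.2, 1318 and 3247, and Sox17 3858, 1582 and 2927. All 3 were highest in depleted lung and lowest in tumour lung. In tumour against wild type lung Sox7 was 2.68-fold and Sox18 2.46-fold lower, while Sox17 was 1.85-fold lower and so missed the threshold. In depleted against tumour lung they were 4.25-fold, 3.97-fold and 2.44-fold higher. Their place above wild type in depleted lung (log2 0.66, 0.69 and 0.40) turned to -0.52, -0.50 and -0.79 after control scaling.

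Klf4, a zinc finger factor of endothelium and differentiating epithelium, read 6395 in depleted, 3115 in tumour and 6643 in wild type lung. It was 2.13-fold lower in tumour than in wild type lung and 2.05-fold higher in depleted than in tumour lung. Ets1, an ETS factor of endothelium and lymphocytes, read 9028, 4331 and 8526, just under 2-fold lower in tumour than in wild type lung (1.97) and 2.08-fold higher in depleted than in tumour lung. These were the endothelial factors nearest the threshold. Id3, an inhibitor of helix-loop-helix factors, read 6222, 1985 and 4144 and was 2.09-fold below wild type in tumour lung and 3.14-fold above tumour lung in depleted lung. Nr4a1, an orphan nuclear receptor and immediate early gene, read 1587, 466 and 1218, 2.61-fold lower in tumour than in wild type lung and 1.77 log2 units higher in depleted than in tumour lung.

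Genes that mark endothelium were lower in tumour lung as well. Of 18 listed marker genes 15 were named, and 14 were at least 2-fold lower in tumour than in wild type lung (median -2.26). Their summed intensity was 93089 in depleted, 23109 in tumour and 94945 in wild type lung, and the summed intensity of the 9 factors was 46481, 14425 and 43009. In depleted lung 11 of the 15 were at least 2-fold higher than in tumour lung (median 1.92), and 3 (Kdr, Flt1 and Esm1) were at least 2-fold below wild type. None of the 9 factors was at least 2-fold below wild type there by the probe sets used, but the second probe set of Foxf1 was, by 1.76 log2 units. Cldn5, an endothelial tight junction gene, read 6882, 783 and 4509.5, and Tmem100, a gene of lung endothelium, 6472, 820.3 and 8957. How much of the factors' difference goes with the amount of endothelium was not tested. After control scaling all 9 factors lay below wild type in depleted lung, between -0.50 (Sox18) and -1.87 (Foxf1), against a median over all probe sets of -1.21.

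The stretches of 250 bases upstream of the RefSeq start of Klf2, Klf4 and Nr4a1 are shown because these 3 genes were low together in tumour lung and are known as immediate early genes. They are from RefSeq, build GRCm38.p6, at chr8:72318812-72319061 (plus strand), chr4:55532476-55532725 (minus strand) and chr15:101266596-101266845 (plus strand). Capitals mark matches on either strand to the GC box GGGCGG, the CACC box CCACCC bound by KLF factors, and the half-site TGACG of the cyclic AMP response element.
Klf2: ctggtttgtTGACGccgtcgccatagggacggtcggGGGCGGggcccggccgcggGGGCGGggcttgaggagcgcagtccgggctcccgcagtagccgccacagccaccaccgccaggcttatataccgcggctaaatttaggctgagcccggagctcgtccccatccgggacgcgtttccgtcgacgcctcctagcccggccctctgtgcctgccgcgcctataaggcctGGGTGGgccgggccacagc
Klf4: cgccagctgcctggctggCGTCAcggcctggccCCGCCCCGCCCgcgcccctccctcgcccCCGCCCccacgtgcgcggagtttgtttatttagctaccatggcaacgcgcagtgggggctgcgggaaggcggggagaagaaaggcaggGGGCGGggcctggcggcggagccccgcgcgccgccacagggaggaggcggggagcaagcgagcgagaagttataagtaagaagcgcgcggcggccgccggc
Nr4a1: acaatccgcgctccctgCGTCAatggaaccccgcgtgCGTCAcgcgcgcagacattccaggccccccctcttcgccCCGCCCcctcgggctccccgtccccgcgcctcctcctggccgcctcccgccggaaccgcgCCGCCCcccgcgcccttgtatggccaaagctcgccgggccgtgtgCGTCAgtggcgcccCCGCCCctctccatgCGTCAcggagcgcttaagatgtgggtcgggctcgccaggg
Klf2 holds 2 GC boxes, 1 CACC box and 1 half-site, and Klf4 holds 4 GC boxes, 1 pair of which overlaps, and 1 half-site. Nr4a1 holds 3 GC boxes and 4 half-sites. A match is a description of letters and not a binding site.

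Promoter windows were found for 32 members. Ets1, Foxf1, Hey1, Hoxb5, Klf5, Pitx1, Sox7, Sox9, Sox17, Sox18, Tbx2 and Tbx3 were not matched. Of the 32, 18 (56.2%) held a GC box, 16 a CACC box and 11 (34.4%) a half-site in any of their windows of that length, against 45.8%, 32.8% and 22.6% of 17491 protein-coding genes. Their median GC content was 63.2%, against 56.4%, and the median ratio of observed to expected CpG was 0.73 against 0.57 (per gene, the highest over its starts). The members are transcription factor genes, and other genes of that class were not compared separately.

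Mesenchymal factors were lower in tumour than in wild type lung as well, and several stayed below wild type in depleted lung. Of the 7 mesenchymal and cardiac factors 6 were at least 2-fold lower in tumour lung and none was higher (median -1.52). In depleted against tumour lung 2 were higher and 5 under 2-fold apart (median 0.59), and in depleted against wild type lung 2 were lower and 5 under 2-fold apart (median -0.42).

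Tcf21, a helix-loop-helix factor of lung mesenchyme, read 2855 in depleted, 1901 in tumour and 9266 in wild type lung. Both mutant samples were far below wild type, tumour lung by 4.87-fold and depleted lung by 3.25-fold, and they were 0.59 log2 units apart from each other. In the authors' deposited table Tcf21 is 6.12-fold and 3.96-fold below wild type. Its upstream stretch, chr10:22820144-22820393 (minus strand), is shown as an example in which none of the 3 motifs was found. It was picked for that, so it is no comparison with the immediate early genes. No match was found for Foxn3, Meis2, Nr2f2, Runx1, Runx2 and Sox13 either, and motifs were not tested against the intensities.
Tcf21: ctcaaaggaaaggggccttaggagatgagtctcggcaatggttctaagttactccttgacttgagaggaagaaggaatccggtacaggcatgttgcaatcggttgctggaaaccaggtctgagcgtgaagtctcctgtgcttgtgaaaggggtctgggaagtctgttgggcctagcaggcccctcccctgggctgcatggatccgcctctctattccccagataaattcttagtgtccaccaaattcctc

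Foxf1, a forkhead factor of lung endothelium and mesenchyme also counted in the endothelial group, had the largest log2 difference of any member below wild type in tumour lung. It read 5039.7 in depleted, 1091 in tumour and 8135 in wild type lung, 7.45-fold lower in tumour than in wild type lung and 4.62-fold higher in depleted than in tumour lung. Its second probe set read 215, 121 and 726, so it stayed 1.76 log2 units below wild type in depleted lung where the first was 0.69 below. Foxf2, its relative in mesenchyme, read 371, 301 and 862 and was at least 2-fold below wild type in both mutant samples (2.87-fold in tumour and 2.32-fold in depleted lung). For depleted against wild type lung the authors' deposited table has 1.57-fold for Foxf2.

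The T-box genes Tbx2 and Tbx4, which pattern lung mesenchyme and lie next to each other on chromosome 11, were lower in tumour than in wild type lung by 2.47-fold and 2.15-fold. Tbx2 read 1879.5 in depleted, 1020 in tumour and 2522 in wild type lung, and Tbx4 2359, 1701 and 3664. On both genes depleted lung lay between the other samples. Tbx3, a T-box repressor, read 779, 257 and 825, 3.21-fold below wild type in tumour lung and 3.03-fold above tumour lung in depleted lung. Klf15, a glucocorticoid-responsive factor of muscle and metabolism, read 1197, 337 and 1347 and was 3.99-fold lower and 3.55-fold higher in these comparisons. By the probe set used and on the deposited scale, Tbx3 and Klf15 were close to wild type in depleted lung, unlike Tcf21 and Foxf2. After control scaling Tbx3 and Klf15 lay at log2 -1.27 and -1.35 from wild type, and Tcf21 and Foxf2 at -2.88 and -2.40. The 3 probe sets of Tbx3 disagreed in depleted against wild type lung, with log2 differences of -0.08, 0.16 and 1.61 on the deposited scale.

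Markers of several mesenchymal and muscle cells did not share 1 direction. Of 11 named fibroblast markers 7 were higher in tumour than in wild type lung and 1 was lower (median 1.22), with summed intensities of 36123 in depleted, 104578 in tumour and 51321 in wild type lung. Smooth muscle markers summed to 8290, 7983 and 14934, with 3 of 6 lower in tumour lung, and mesothelium markers to 2973, 2579 and 6836, with 4 of 5 lower. Cardiac and skeletal muscle markers summed to 10451, 820 and 55342, and all 12 were lower in both mutant samples than in wild type lung. Myh6, the cardiac myosin gene, read 3216, 35.1 and 11009. Muscle markers were highest in the wild type sample, and their part in the values of Klf15, Tbx3 and the other factors was not tested.

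Of the 5 homeobox factors 3 were lower in tumour than in wild type lung, 1 was higher and 1 was under 2-fold apart (median -1.36), and 3 were higher and 1 lower in depleted than in tumour lung (median 1.14). Hoxb5, which acts in lung mesenchyme and branching, read 589.6 in depleted, 122 in tumour and 871 in wild type lung. It was 7.11-fold lower in tumour than in wild type lung and 4.82-fold higher in depleted than in tumour lung, against 3.94-fold and 3.02-fold in the authors' deposited table. Hoxa5, required for normal lung development in mice, read 1384, 723 and 1231 and missed the threshold in every comparison by intensity. It was 1.91-fold higher in depleted than in tumour lung, where the authors' deposited table lists 2.20-fold. Meis1 and Meis2, cofactors of HOX proteins, were 2.56-fold and 3.20-fold lower in tumour than in wild type lung and 2.25-fold and 2.21-fold higher in depleted than in tumour lung. Meis1 read 901, 400.2 and 1025, and Meis2 449.8, 204 and 651. Their probe sets disagreed in sign between depleted and wild type lung, with log2 differences of -0.19 and 0.81 for Meis1 and of -0.80, -0.53 and 0.64 for Meis2. The signs also differed for Gata2, Klf4 and Sox9 in this comparison, and for none of the 12 members with several probe sets in the other 2 comparisons.

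All 4 nuclear receptors of the NR families were at least 2-fold lower in tumour than in wild type lung (median -1.37), and Nr4a1 was the 1 that was at least 2-fold higher in depleted than in tumour lung. The mineralocorticoid receptor gene Nr3c2 read 213 in depleted, 111 in tumour and 392 in wild type lung, 3.53-fold lower in tumour than in wild type lung (2.43-fold in the authors' deposited table). Nr2f2, a factor of venous identity, read 296, 193 and 496, and the clock repressor Nr1d1 406, 293 and 670.1, 2.57-fold and 2.29-fold lower in tumour lung. These 3 lay between tumour and wild type lung in the depleted sample, at 1.84-fold, 1.67-fold and 1.65-fold below wild type.

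**Figure D2:**
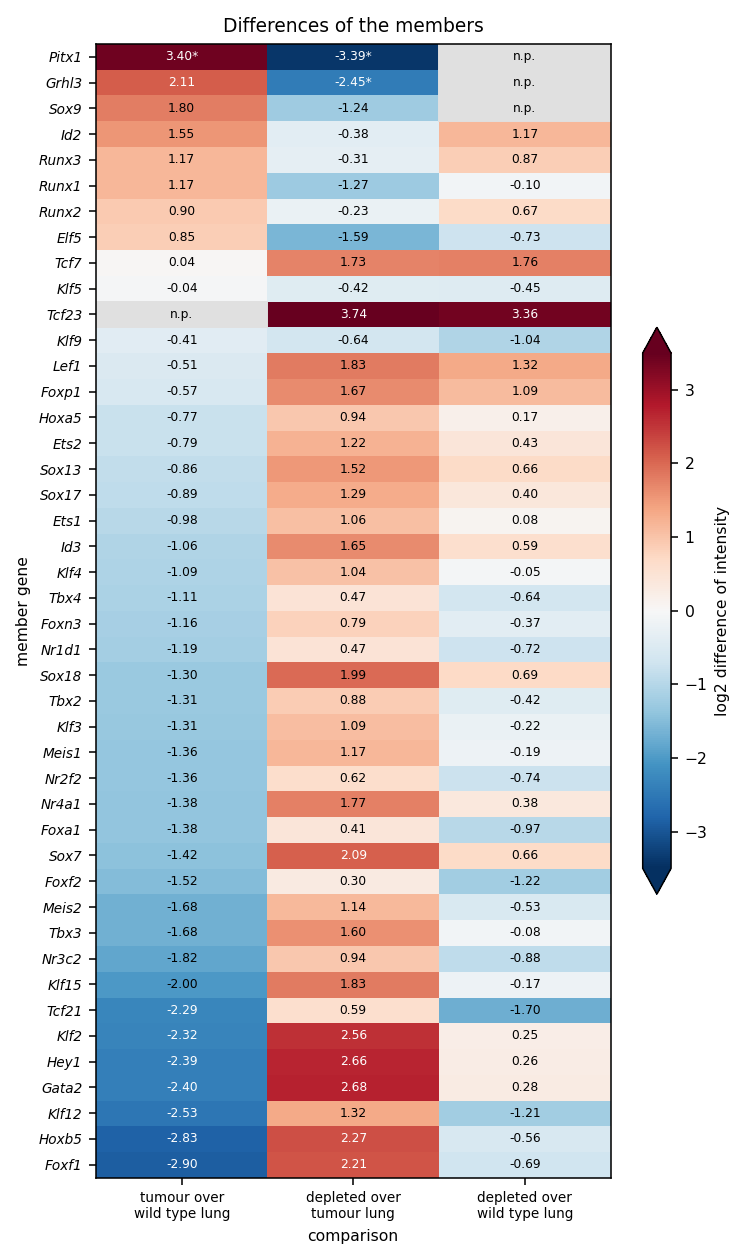
Log2 difference of intensity of each of the 44 members (rows) in 3 comparisons (columns), red where the first named sample was higher and blue where it was lower, with an asterisk for a bound and "n.p." for a member that did not pass the level filter. The middle column is mostly red where the left column is blue, and in the right column 32 members are under 2-fold apart.

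A smaller set was higher in tumour lung. Pitx1, a homeobox factor of the hindlimb, read 14.5 in depleted, 368 in tumour and 30.6 in wild type lung, and tumour lung exceeded wild type lung by at least 10.6-fold. Depleted lung lay at least 10.5-fold under tumour lung. The second probe set of Pitx1 read 4.51, 171.6 and 9.27, and the median over both probe sets was 2.85 and -2.84 on the log2 scale in these comparisons, smaller than for the brighter probe set alone. Grhl3, a grainyhead factor of the epidermal barrier, read 1.30, 191 and 44.5, 4.30-fold higher in tumour than in wild type lung. In depleted lung Grhl3 lay at least 5.47-fold under tumour lung. Sox9, a factor of cartilage and of distal lung epithelial progenitors, read 63.3, 149.5 and 42.8, 3.49-fold higher in tumour than in wild type lung and 2.36-fold lower in depleted than in tumour lung. For Sox9 these folds are 2.10 and 1.93 in the authors' deposited table. Its second probe set read 12.9, 175.8 and 28.7, and the median over both was 2.21 on the log2 scale in tumour against wild type lung and -2.21 in depleted against tumour lung, where the brighter probe set gave 1.80 and -1.24. All 3 were above the array median in tumour lung alone and did not pass the level filter in depleted against wild type lung. Elf5, an ETS factor of glandular epithelium, read 477, 1435 and 794, which was 1.81-fold above wild type in tumour lung and 3.00-fold below tumour lung in depleted lung. After control scaling the log2 difference of Elf5 in tumour against wild type lung turned negative, at -0.15.

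Grhl3 is shown with its upstream stretch, chr4:135573633-135573882 (minus strand), since it was the grainyhead member and was bright in tumour lung alone. It holds 1 GC box and 2 CACC boxes and no half-site.
Grhl3: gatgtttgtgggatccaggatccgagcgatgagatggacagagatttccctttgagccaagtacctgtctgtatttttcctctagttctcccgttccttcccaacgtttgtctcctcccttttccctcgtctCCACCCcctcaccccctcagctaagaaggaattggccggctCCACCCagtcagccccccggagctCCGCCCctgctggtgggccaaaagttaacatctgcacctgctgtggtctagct

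Squamous markers moved in the same direction as these factors by more. Of 22 named markers 21 passed, of which 20 were higher in tumour than in wild type lung (median 4.74), and their summed intensity was 1767 in depleted, 100211 in tumour and 2138 in wild type lung. The basal keratin gene Krt14 read 7.11, 15242 and 31.3. Of the 6 epithelial factors 5 passed in tumour against wild type lung, with 2 higher, 1 lower and 2 under 2-fold apart (median 0.85). Foxa1, a forkhead factor of airway epithelium, read 1207, 905 and 2365 and was 2.61-fold lower in tumour than in wild type lung, and depleted lung stayed 1.96-fold below wild type. Ciliated cell markers summed to 9060, 2911 and 14902, and all 11 that passed were lower in tumour lung. Klf5, a factor of basal epithelium, read 265, 354 and 363 and missed 2-fold in every comparison, although the authors' deposited table lists it at 2.03-fold lower in depleted than in tumour lung.

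**Figure D3:**
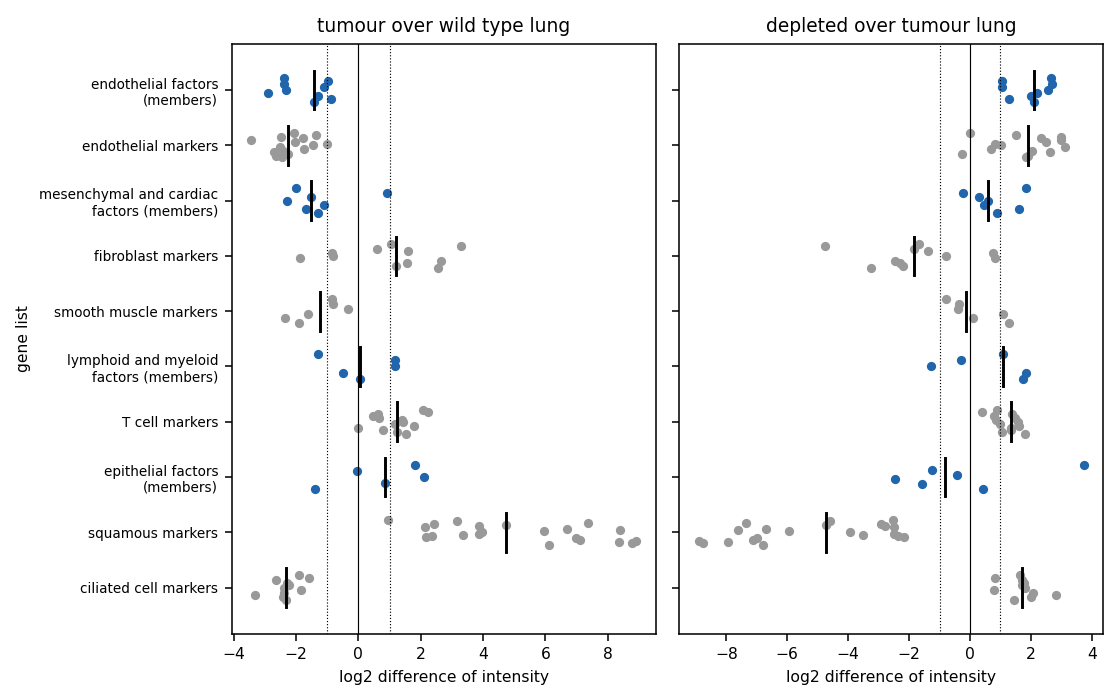
Log2 difference of intensity (horizontal axis) of genes that passed the level filter, by list (rows), in tumour over wild type lung (left) and depleted over tumour lung (right), with blue points for members, grey points for cell type markers, a black bar for each list's median, a solid line at 0 and dotted lines at 2-fold. Endothelial factors and endothelial markers lie on the same side of 0 in the left panel, with medians of -1.42 and -2.26, and squamous markers lie far to the right with a median of 4.74.

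Of the 5 lymphoid and myeloid factors 2 were higher and 1 lower in tumour than in wild type lung (median 0.04), and 3 were higher and 1 lower in depleted than in tumour lung (median 1.09). Tcf7, a factor of T cells that acts with beta-catenin, read 2355 in depleted, 712 in tumour and 693 in wild type lung. Lef1, its close relative, read 1110.5, 312 and 444. Both were high in depleted lung alone, by 3.31-fold and 3.56-fold above tumour lung and by 1.76 and 1.32 log2 units above wild type lung. Lef1 is 1.88-fold above wild type in the authors' deposited table, and after control scaling its log2 difference was 0.14 and that of Tcf7 0.58.

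T cell markers were above wild type in both mutant samples by their sums. All 13 named markers were higher in depleted than in wild type lung (median 2.26) and 8 of 13 were higher in tumour than in wild type lung (median 1.24), with summed intensities of 15531 in depleted, 6718 in tumour and 2898 in wild type lung. Cd3d, which encodes a chain of CD3, read 3749, 1065 and 369. Tcf7 in tumour lung was at the level of wild type on the deposited scale (log2 0.04, but -0.96 after control scaling) while Cd3d was 2.88-fold higher there, and the difference between these genes was not tested.

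Foxp1, a forkhead factor of lymphocytes and lung epithelium, read 1738 in depleted, 548 in tumour and 814 in wild type lung, 3.17-fold above tumour lung and 2.14-fold above wild type lung. After control scaling its log2 difference from wild type was -0.09. Its second probe set was 0.65 log2 units above wild type, under 2-fold. Sox13 read 1648, 573 and 1042, and Ets2 8293, 3569 and 6156, and both were more than 2-fold higher in depleted than in tumour lung (2.87-fold and 2.32-fold) and under 2-fold apart from wild type. Tcf23, a helix-loop-helix factor known from the reproductive tract and counted above among epithelial factors, had the largest difference of any member between depleted and wild type lung. It read 661 in depleted lung, against 49.4 in tumour and 64.2 in wild type lung, 13.4-fold and 10.3-fold higher. In the authors' deposited table these folds are 4.07 and 3.61. Its 1 listed probe set was below the array median on the other 2 arrays.

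Id2, Runx1 and Runx3 were at least 2-fold higher in tumour than in wild type lung. Id2, an inhibitor of helix-loop-helix factors needed by innate lymphoid cells, read 5309.6 in depleted, 6915 in tumour and 2364 in wild type lung, and was the 1 member at least 2-fold above wild type in both mutant samples (2.93-fold in tumour and 2.25-fold in depleted lung). After control scaling the log2 difference of Id2 in depleted against wild type lung was -0.02. Its 3 probe sets ran between 1.55 and 1.63 log2 units above wild type in tumour lung, and Id3, described above, went the other way.

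Runx1, a factor of blood cell formation, read 428 in depleted, 1034 in tumour and 458 in wild type lung, 2.26-fold higher in tumour than in wild type lung and 2.42-fold lower in depleted than in tumour lung. Its second probe set read 221, 469 and 454 and did not show the difference from wild type in tumour lung. Runx3, a factor of cytotoxic T cells, read 195, 242 and 107, 2.26-fold higher in tumour than in wild type lung, and Runx2, a factor of bone, 646, 760 and 406, 1.87-fold higher. After control scaling the log2 differences in tumour against wild type lung were 0.55 for Id2, 0.17 for Runx1, 0.17 for Runx3, -0.10 for Runx2 and 0.80 for Sox9, all under 2-fold. Monocyte and macrophage markers summed to 41453 in depleted, 132017 in tumour and 10132 in wild type lung. Their part in the RUNX and Id2 values was not tested.

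Klf12, a zinc finger repressor, read 192 in depleted, 76.7 in tumour and 444 in wild type lung, 5.79-fold below wild type in tumour lung and 2.32-fold below it in depleted lung, against 2.81-fold and 1.96-fold in the authors' deposited table. Its neighbour among protein-coding genes, Klf5, did not share this difference. Klf3 read 374, 175 and 436, and Foxn3 979, 565 and 1263, and both were lower in tumour than in wild type lung (2.48-fold and 2.24-fold). Klf9, a glucocorticoid-induced factor, was lowest in depleted lung, with 214 against 332 in tumour and 439.9 in wild type lung, 2.06-fold below wild type.

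By the probe sets used and on the deposited scale, 25 members were lower in tumour than in wild type lung. Of these, 13 lay within 1.5-fold of wild type in depleted lung, 3 stayed at least 2-fold lower (Foxf2, Klf12 and Tcf21) and 9 lay between 1.5-fold and 2-fold from wild type. After control scaling the 13 lay between log2 -0.80 (Nr4a1) and -1.75 (Hoxb5), against a median over all probe sets of -1.21. The same split was not made over the other named genes. Of the 6 members higher in tumour than in wild type lung, Runx1 and Sox9 were within 1.5-fold in depleted lung, where Sox9 did not pass the level filter. Id2 stayed higher, and Runx3 was 1.82-fold above wild type (log2 0.87, but -0.32 after control scaling). In depleted against wild type lung Runx1 was at log2 -1.28 after control scaling, and its second probe set was 1.04 log2 units lower on the deposited scale. Grhl3 and Pitx1 did not pass the filter there. Foxp1, Klf9, Lef1 and Tcf7 differed from wild type by 2-fold in depleted lung but not in tumour lung. Hoxa5, Klf5 and Runx2 were not 2-fold apart in any comparison by the deposited intensities.

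Other developmental factors outside the member families were set beside these. Of 117 listed genes 39 were named and 38 passed in tumour against wild type lung, with 18 higher, 8 lower and 12 under 2-fold apart (median 0.82). In depleted against tumour lung 38 passed, with 7 higher and 13 lower, and in depleted against wild type lung 33 passed, with 10 higher and 7 lower. Trp63, the basal epithelial factor, read 87.6 in depleted, 991 in tumour and 96.5 in wild type lung. Erg, an ETS factor of endothelium, read 895, 382 and 2298, and Bcl11b, a T cell factor, 1096, 1034 and 174. Erg was 6.02-fold lower in tumour than in wild type lung, while Trp63 and Bcl11b were 10.3-fold and 5.96-fold higher. In the authors' deposited table these folds are 3.94, 13.6 and 3.22. Erg was also 2.57-fold below wild type in depleted lung (1.64-fold in the authors' deposited table).

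The rule's threshold of 2-fold in the authors' deposited tables passes close to several members. In tumour against wild type lung Sox13 was just inside with a deposited ratio of 2.01 and Ets2 just outside with 1.95. In depleted against tumour lung Ets2 was inside with 2.02 and a probe set of Klf4 outside with 1.99, and in depleted against wild type lung Klf9 was inside with 2.07 and Id2 outside with 1.997. These ratios are not the plain quotients of the deposited intensities, as the plot of both scales shows.

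**Figure D4:**
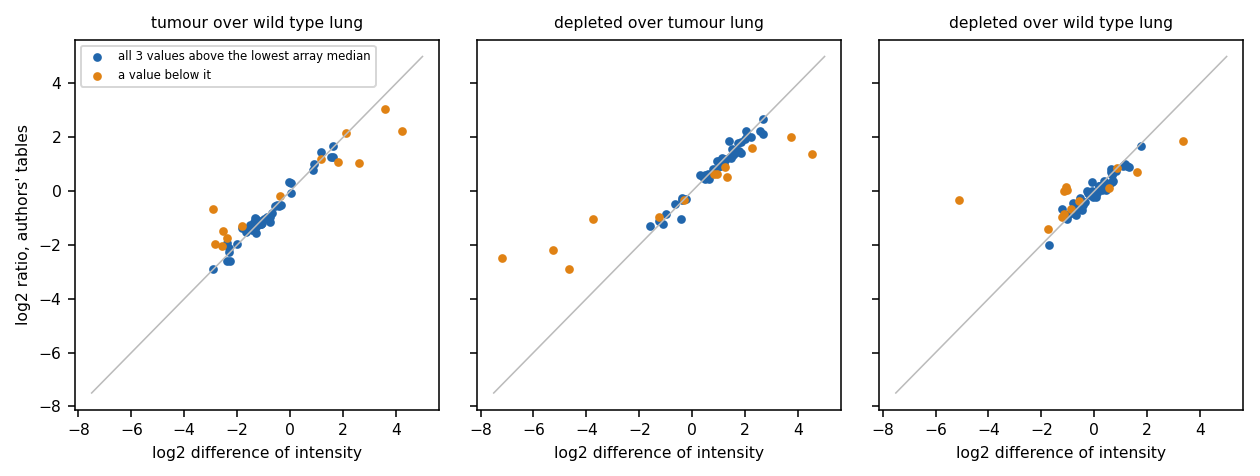
Log2 ratio in the authors' deposited tables (vertical axis) against the log2 difference of the deposited intensities (horizontal axis) for the 59 probe sets of the members, 1 panel per comparison, with the line of equality in grey. Blue points, with all 3 values above the lowest array median of 124, lie near the line, and orange points, with a value below it, spread away from it.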

How the data were processed

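RNA from 3 mouse lungs was measured on 1 Affymetrix array each. Per the deposited value table, 45101 probe sets (64 controls) have a linear intensity. Summarising and scaling steps are not given in the sources used here. The submitters' processing notes name Partek with no version. Per the file headers, the authors also deposited 3 tables with the linear ratio of each pair of samples. Signed fold scores in these deposited tables were not used.

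Probe sets were named only through those tables. Of 4276 listed probe sets that are not controls, 3858 had 1 symbol and 180 had several. Symbols were updated with RefSeq GRCm38.p6 through the accession (3661), its present symbol (66) or a former symbol (42), while 89 stayed as listed. This changed Foxf1a to Foxf1 among the members. The listed probe set brightest on average stood for its gene. Log2 differences used no further scaling.

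The level filter was the 50th percentile of the brighter array and the bound the 25th percentile of the dimmer. Each group had 1 array, so no p-value was computed. The text names every member at least 2-fold apart in any comparison and, per marker list and for the other factors, up to 4 genes with the largest differences. Hoxa5, Klf5, Runx2, Kdr, Flt1, Esm1, Perp, Trim29, Col17a1, Itgb4, Sftpc and Xist lie outside that rule and were chosen after values were seen. Members and lists were chosen with earlier results of these data known. Calls were tested on simulated data with planted differences. Python 3.11.15, numpy 2.4.6, pandas 2.3.3 and matplotlib 3.10.9 were used.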

Additional observations from a re-analysis of the deposited data

How the results depend on the processing

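No paired analysis was possible because each group had 1 array. Of 12 alternatives, equal medians, no level filter, raised dim values, the median over probe sets, quantile normalization and leaving out less specific probe sets kept all 6 counts within 1.5 times. With the level filter at the 75th percentile, 2 members were higher in tumour than in wild type lung, 2 lower in depleted than in tumour lung and 2 lower in depleted than in wild type lung. At 1.5-fold, 11 members were higher and 11 lower in depleted than in wild type lung. At 3-fold, 3 were higher and 11 lower in tumour than in wild type lung, 15 higher and 3 lower in depleted than in tumour lung, and 2 higher and 1 lower in depleted than in wild type lung. With the ratios of the authors' deposited tables, 2 were higher and 2 lower in depleted than in wild type lung. Counting probe sets gave 10 higher in tumour than in wild type lung, 8 lower in depleted than in tumour lung and 7 lower in depleted than in wild type lung. After scaling to the hybridization controls, 2 members were higher in tumour than in wild type lung, and 1 was higher and 24 lower in depleted than in wild type lung, since every difference is lowered by 1 amount. The log2 differences of Foxp1 (-0.090) and Id2 (-0.016) in depleted against wild type lung then reversed. Pitx1, Grhl3, Sox9 and Tcf23 were below the array median on 2 of 3 arrays, which limits their folds. No array could be left out, since no group has a second.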

Other observations

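The deposited tables also list 3 probe sets of the same families that are shared with another gene symbol and were not counted as members. The probe set of Id4 and LOC100045546 read 632 in depleted, 2222 in tumour and 823 in wild type lung. That of Grhl1 and LOC100043996 read 106, 337 and 146 in the same order. On both, tumour lung was the high array. That of Nr2f1 and LOC100046044 read 234, 101 and 476, with tumour lung the low array. Which of the paired genes each value belongs to cannot be told apart.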
